A study of Schizosaccharomyces pombe with 6 samples.

Results

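The genes examined were the sterol and oxygen sensor pair sre1 and scp1, the mevalonate pathway gene hmg1 and 7 genes of ergosterol synthesis (erg1, erg11, erg25, erg5, erg24, erg27 and erg6) of fission yeast, *Schizosaccharomyces pombe*. They were taken by symbol, as probe sets that the platform annotation assigns to a single *S. pombe* gene. Each of the 10 genes had 1 probe set, out of 2917 *S. pombe* probe sets for 2899 genes. Shares of all *S. pombe* probe sets below are shares of these 2917. The array has 5177 further probe sets without an assigned gene and 20 that name several genes, which are left out of those shares. Values came from 3 arrays of isp7 null cells and 3 arrays of wild type cells. Both strains were grown at 30 °C in Edinburgh minimal medium with 5 g/L ammonium chloride and harvested in exponential growth. The labels do not say how isp7 was removed or from how many clones. They also do not call the replicates separate cultures, and the spread that the p-values rest on may therefore be technical in part.

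Ergosterol is the main membrane sterol of fungi, and several of its synthesis steps consume molecular oxygen. In fission yeast the cell follows oxygen through its sterol supply. Scp1, the counterpart of mammalian SCAP, is the sterol-sensing escort of the membrane-bound transcription factor Sre1, the counterpart of SREBP. Sre1 stays largely uncleaved until sterol or oxygen is low. The Dsc complex, a Golgi ubiquitin ligase, is then needed for the cleavage that frees the amino-terminal part of Sre1, which enters the nucleus and activates sre1 itself, sterol genes and other genes of oxygen-dependent metabolism. In the presence of oxygen the dioxygenase Ofd1 speeds the breakdown of that nuclear form, and Nro1 restrains Ofd1. Isp7 belongs to the same broad family of iron-dependent dioxygenases as Ofd1. No sequences are shown, because no sequence table or genome was used here.

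Values are deposited log2 probe set values, on which a difference of 1 is a doubling. Errors of values are SD over 3 arrays, and errors of changes (isp7 null minus wild type) are SE of a limma fit over all 2917 probe sets. In what follows, rose and fell mean a limma adjusted p under 0.05, with the 1.5-fold limit of the series' design text given separately. Replicate arrays were close (pairwise correlation 0.998 to 0.999, against 0.973 to 0.978 between groups), and very small changes therefore pass the test. By the adjusted p alone, 29.3% of all *S. pombe* probe sets rose and 41.3% fell in the null strain, and 8.60% changed by at least 1.5-fold. The deleted gene isp7 averaged 6.19 ± 0.18 in isp7 null cells and 11.62 ± 0.073 in wild type cells (SD, n = 3 each), a log2 change of -5.43. Because the null mean is under the background of 7.08, set by the *S. cerevisiae* probe sets of the same array, that change is a lower limit in size. All values of the 10 genes lay between 11.20 and 14.41, above that background. Of 8 *S. cerevisiae* counterparts on the array (HMG1 and the ERG genes of the same numbers), a check chosen after values were seen, 7 were below the background in both groups. The other, ERG25, averaged 7.16 in isp7 null cells and 7.0 in wild type cells.

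None of the 10 genes changed by 1.5-fold without isp7. Of the 10 genes, erg5 rose, sre1, scp1, hmg1, erg1 and erg6 fell, and erg11, erg25, erg24 and erg27 did not pass the test. The furthest bound of any 95% interval of the 10 was a 1.40-fold difference, that of hmg1. The counts, 1 of 10 higher and 5 of 10 lower, stood against 29.3% and 41.3% of all *S. pombe* probe sets, and their difference from those shares was not tested. The median change of the 10 was -0.10, against -0.05 for all *S. pombe* probe sets, and their median change regardless of direction was 0.13 against 0.20. Median centring subtracted from each array the median of its 2917 *S. pombe* probe sets. Repeated quantile normalization gave those probe sets the same distribution on every array. With either, the split of the 10 became 3 higher and 4 lower. The split of all 2917 *S. pombe* probe sets moved too, from 856 higher and 1205 lower in the main fit. It became 1016 and 1038 with median centring, and 979 and 1092 with repeated quantile normalization.

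**Figure D1:**
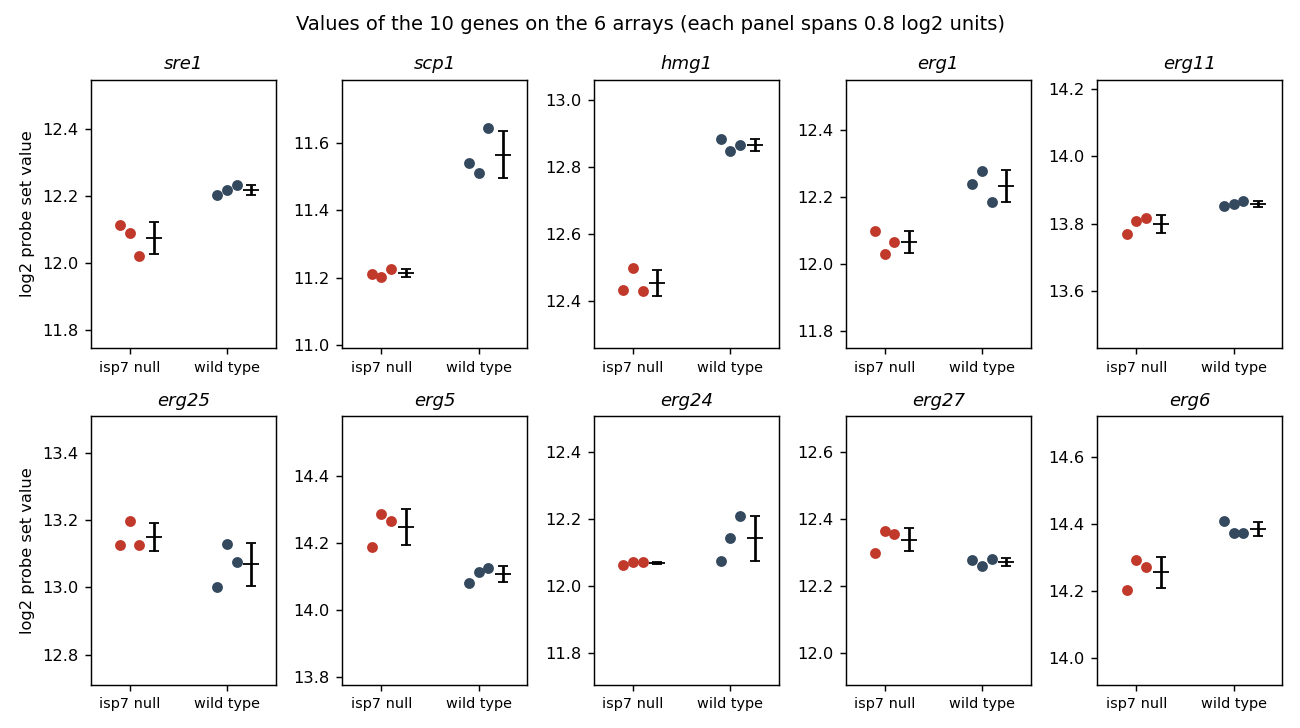
Log2 probe set values of the 10 genes, with isp7 null arrays (red) left of wild type arrays (dark blue), each point 1 array and each bar the mean ± SD of 3 arrays; every panel spans the same range of log2 units. The separation of the groups is widest for hmg1 and scp1, and erg25 is the panel in which the groups overlap.

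The sensor pair was lower in the null, scp1 more than sre1. For scp1 (SPBC3B9.15c), the escort protein that senses sterol, the isp7 null arrays stood at 11.21, 11.20 and 11.23 and the wild type arrays at 11.54, 11.51 and 11.65. All null arrays were below all wild type arrays, and wild type array 3 was the highest. The means were 11.21 ± 0.012 in isp7 null cells and 11.57 ± 0.070 in wild type cells (SD, n = 3 each). The change was -0.35 (SE 0.039, 95% interval -0.45 to -0.26), 1.28-fold lower, with limma adjusted p = 0.000174. Over all probe sets this fall sat at percentile 16.6 of the changes ordered from lowest to highest. It passed the test under all 16 alternative treatments of the values, with changes between -0.38 and -0.20.

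For sre1 (SPBC19C2.09), the transcription factor, the isp7 null arrays stood at 12.11, 12.09 and 12.02 and the wild type arrays at 12.20, 12.22 and 12.23. The groups did not overlap, and null array 1 came closest to the wild type arrays. The means were 12.07 ± 0.049 in isp7 null cells and 12.22 ± 0.015 in wild type cells (SD, n = 3 each). The change was -0.14 (SE 0.032, 95% interval -0.22 to -0.067), 1.1-fold lower, with limma adjusted p = 0.00566. This call was not stable to scaling: the change was -0.10 with median centring (adjusted p = 0.0592), -0.10 with repeated quantile normalization (adjusted p = 0.0521) and -0.02 after correction for gene length (adjusted p = 0.604). The change of scp1 minus that of sre1 was -0.21, with a two-sided exact permutation p = 0.10, the smallest that 3 against 3 arrays allow.

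Set against the 7 erg enzymes, the sensor pair had the lower mean, and scp1 had the larger part in that. Averaged over sre1 and scp1 and set against the wild type mean, the isp7 null arrays stood at -0.23, -0.25 and -0.27 and the wild type arrays at -0.02, -0.03 and 0.05. Averaged over the 7 erg genes, the isp7 null arrays stood at -0.05, -0.003 and -0.01 and the wild type arrays at -0.02, 0.01 and 0.007. All null arrays were below all wild type arrays for the pair, and the groups overlapped for the enzyme mean. The mean change was -0.25 for the pair and -0.02 for the 7 enzymes, a description with no test since the genes were chosen as a list. The change of sre1 alone (-0.14) lay inside the range of the erg genes, from -0.17 (erg1) to 0.14 (erg5). The enzyme mean joins the falls of erg1 and erg6 with the rise of erg5. It leaves out the enzyme gene hmg1, whose change (-0.41) was lower than that of sre1 or scp1. Gene length moved with the contrast of pair and erg genes: sre1 (3298 bases) and scp1 (3737 bases) are longer than the erg genes (1421 to 2502 bases). Over all *S. pombe* probe sets, change and length had a Spearman's rho of -0.367, given as a description of genes measured on the same arrays. After correction for length the pair's mean change was -0.11 and that of the enzymes -0.02. Level differed as well: values of the pair lay between 11.20 and 12.23, and those of the 7 erg genes between 12.03 and 14.41. Whether level had a part in the contrast was not tested.

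**Figure D2:**
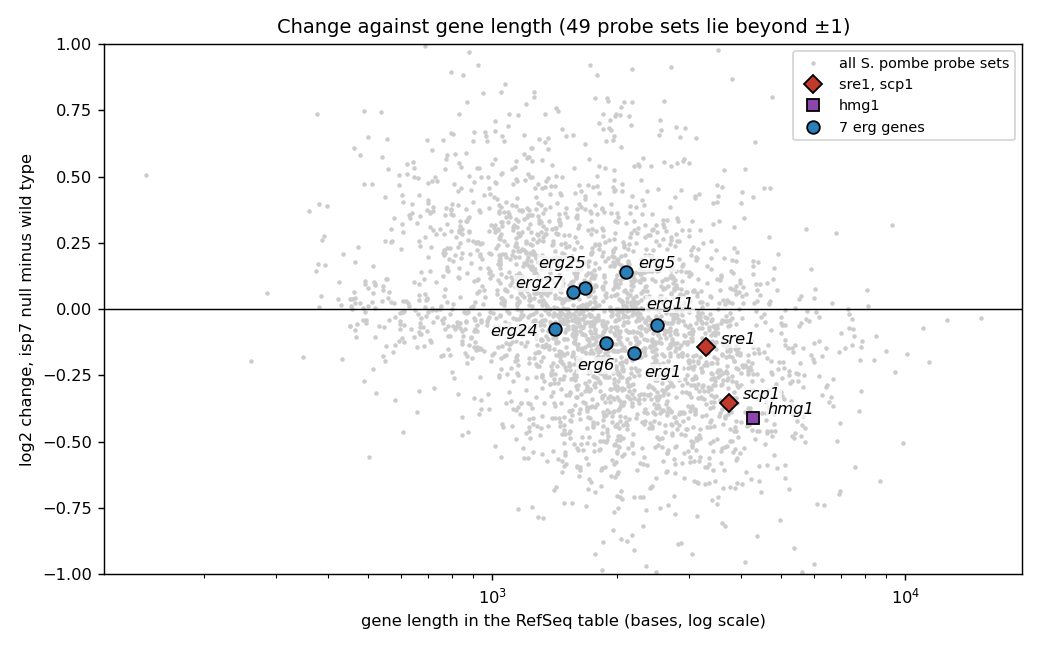
Log2 change (isp7 null minus wild type, vertical axis) against gene length (bases, log scale) for all *S. pombe* probe sets in grey, with sre1 and scp1 as red diamonds, hmg1 as a purple square and the 7 erg genes as blue circles; 49 probe sets with changes beyond 1 in size lie outside the axis. The cloud slopes downward with length, and hmg1 and scp1, the longest of the 10 genes, have the lowest changes of the 10.

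The largest change of the 10 was that of hmg1 (SPCC162.09c), which encodes HMG-CoA reductase, the enzyme that commits carbon to the mevalonate pathway. The isp7 null arrays stood at 12.43, 12.50 and 12.43 and the wild type arrays at 12.88, 12.85 and 12.87. The 2 groups were separated by many times the spread within either. The means were 12.45 ± 0.038 in isp7 null cells and 12.87 ± 0.017 in wild type cells (SD, n = 3 each). The change was -0.41 (SE 0.030, 95% interval -0.48 to -0.34), 1.33-fold lower, with limma adjusted p = 2.66e-05. At 4277 bases hmg1 is also the longest of the 10, and after correction for gene length its change was -0.23 (limma adjusted p = 0.000299). The intervals of hmg1 and scp1 overlapped, so their order is not set by these data.

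Of the 4 enzymes that use molecular oxygen, erg1 fell and erg5 rose. For erg1 (SPBC713.12), squalene epoxidase and the first oxygen-consuming step, the isp7 null arrays stood at 12.10, 12.03 and 12.07 and the wild type arrays at 12.24, 12.28 and 12.18. The null arrays were all lower, and the change was -0.17 (SE 0.035, limma adjusted p = 0.00389), 1.12-fold. For erg5 (SPAC19A8.04), a cytochrome P450 that desaturates the sterol side chain late in the pathway, the isp7 null arrays stood at 14.19, 14.29 and 14.27 and the wild type arrays at 14.08, 14.11 and 14.13. The null arrays were all higher, and the change was 0.14 (SE 0.035, limma adjusted p = 0.00853), 1.1-fold. The 95% intervals of these 2 genes, -0.25 to -0.085 for erg1 and 0.058 to 0.22 for erg5, lie on opposite sides of 0. Both calls passed under all 16 alternatives.

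The other oxygen-using enzymes did not pass. For erg11 (SPAC13A11.02c), the P450 lanosterol demethylase that azole drugs inhibit, the isp7 null arrays stood at 13.77, 13.81 and 13.82 and the wild type arrays at 13.85, 13.86 and 13.87. The groups did not overlap, yet the change was -0.06 (SE 0.026, 95% interval -0.12 to 0.0028, limma adjusted p = 0.0789). The adjusted p of erg11 was 0.0318 with an intensity trend and 0.0300 without variance moderation, and its change was 0.005 after correction for gene length. For erg25 (SPAC630.08c), the sterol methyl oxidase, the isp7 null arrays stood at 13.12, 13.20 and 13.13 and the wild type arrays at 13.002, 13.13 and 13.08. It was the one gene of the 10 with overlapping groups, since wild type array 2 was above 2 null arrays. The change was 0.08 (SE 0.041, 95% interval -0.017 to 0.18, limma adjusted p = 0.117). With median centring it was 0.13 (adjusted p = 0.0238), and with repeated quantile normalization 0.13 (adjusted p = 0.0148).

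Of the 3 sterol enzymes that do not use oxygen, erg6 fell and the other two did not pass. The sterol methyltransferase gene erg6 (SPBC16E9.05) stood at 14.21, 14.29 and 14.27 in isp7 null arrays and at 14.41, 14.37 and 14.37 in wild type arrays. The null arrays were all lower, with a change of -0.13 (SE 0.032, 95% interval -0.21 to -0.053, limma adjusted p = 0.00886). In the RefSeq gene table erg6 overlaps pac3 and uvi31, the single case of overlap with protein-coding genes among the 10, and 8 of the others overlap a non-coding RNA gene. The table used gives no strand. The sterol reductase gene erg24 (SPBC16G5.18), which acts right after Erg11, stood at 12.06, 12.07 and 12.07 in isp7 null arrays and at 12.08, 12.14 and 12.21 in wild type arrays. The change was -0.07 (SE 0.038, 95% interval -0.16 to 0.015, limma adjusted p = 0.116). Wild type array 1 lay next to the null arrays, and without it the change was -0.11 (adjusted p = 0.0296). After correction for gene length the change of erg24 was -0.13 (adjusted p = 0.0180). The keto-reductase gene erg27 (SPBC1709.07), which works with Erg25 in removing methyl groups, stood at 12.30, 12.36 and 12.35 in isp7 null arrays and at 12.28, 12.26 and 12.28 in wild type arrays. Its change was 0.07 (SE 0.029, 95% interval -0.0023 to 0.13, limma adjusted p = 0.0760). Without isp7 null array 1, the lowest of its group, it was 0.09 (adjusted p = 0.0294). With median centring it was 0.11 (adjusted p = 0.00638), and with repeated quantile normalization 0.10 (adjusted p = 0.0164).

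**Figure D3:**
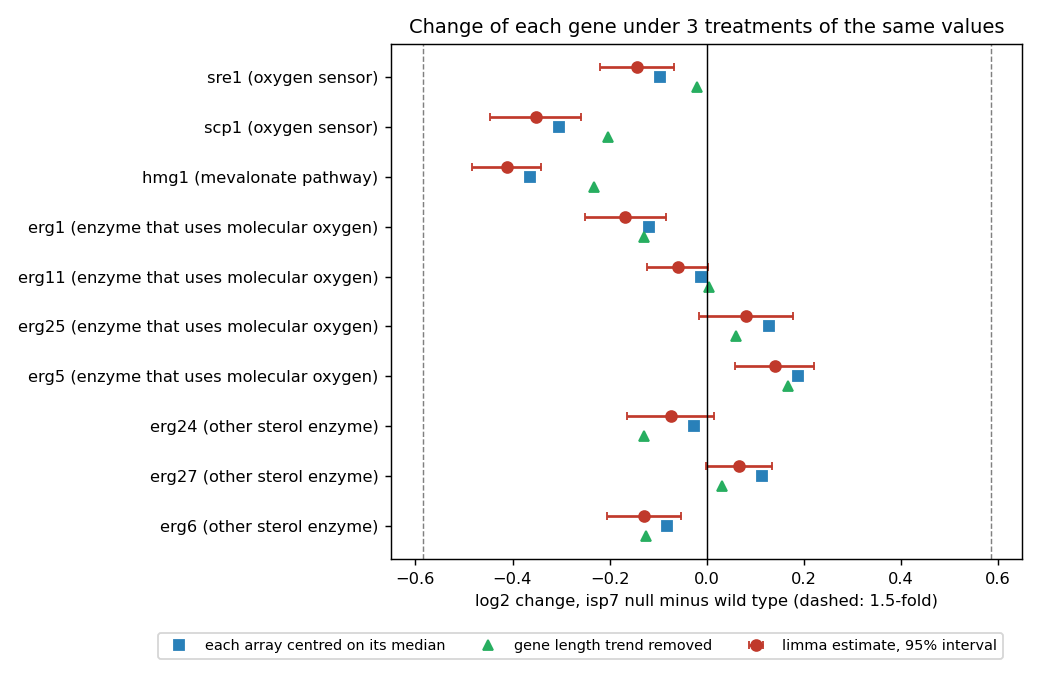
Log2 change (isp7 null minus wild type, horizontal axis) of the 10 genes by role, with the limma estimate and its 95% interval in red. Blue squares give the change after centring each array on the median of its *S. pombe* probe sets. Green triangles give the change after removing the trend with gene length. All intervals lie inside the dashed lines at 1.5-fold, and hmg1 and scp1 lie left of the other 8.

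Ordered from lowest to highest, the changes ran hmg1, scp1, erg1, sre1, erg6, erg24, erg11, erg27, erg25 and erg5. The 95% intervals of the first 2 overlapped neither that of sre1 nor that of any erg gene. The intervals of erg1, sre1, erg6, erg24 and erg11 overlapped one another, and so did those of erg27, erg25 and erg5. These are not separate groups, since the intervals of erg24 and erg11 overlapped those of erg27 and erg25 too. Among the 10, 7 had null arrays wholly below and 2 had null arrays wholly above the wild type arrays. The same held for 45.2% and 30.9% of all *S. pombe* probe sets.

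A list around Sre1, called machinery genes below, includes relatives or counterparts by family such as sre2, ofd2 and ins1. A part in the control of Sre1 is not implied for every gene on it. Of its 11 measured genes (12 listed), 5 rose and 5 fell, against 29.3% and 41.3% of all *S. pombe* probe sets. None changed by 1.5-fold, and their median change was 0.06. Among the Dsc ubiquitin ligase subunits 4 of 5 rose, against 29.3% of all probe sets, and the calls of dsc3 and dsc4 held under all 16 alternatives. The subunit gene dsc3 rose by 0.50 (SE 0.027, limma adjusted p = 1.07e-05) and dsc4 by 0.39 (SE 0.026, limma adjusted p = 1.88e-05). At 941 bases dsc3 is a short gene, and after correction for gene length its change was 0.35 and that of dsc4 0.38. The isp7 null arrays of dsc3 stood at 12.89, 12.86 and 12.90 and its wild type arrays at 12.41, 12.38 and 12.37. For dsc4 the isp7 null arrays stood at 10.65, 10.70 and 10.66 and the wild type arrays at 10.28, 10.27 and 10.27. In both genes the groups were far apart relative to their spread. The changes of dsc2 (0.15, adjusted p = 0.0484) and dsc5 (0.11, adjusted p = 0.0292) also passed, and dsc1 did not (0.06, adjusted p = 0.223). The calls of dsc2 and dsc5 ended when single arrays were left out. Without isp7 null array 2 or 3 or wild type array 2 or 3, the adjusted p of dsc2 was 0.0667, 0.103, 0.131 and 0.125. Without isp7 null array 1 or 2 or wild type array 2 or 3, that of dsc5 was 0.0699, 0.0796, 0.0745 and 0.0999. The call of dsc2 also ended after correction for gene length (0.14, adjusted p = 0.0595), without variance moderation (adjusted p = 0.122) and with all probe sets of the array tested (adjusted p = 0.116). That of dsc5 ended with an intensity trend (adjusted p = 0.0512), without variance moderation (adjusted p = 0.0613) and with all probe sets (adjusted p = 0.103). The gene dsc1 passed with repeated quantile normalization (0.14, adjusted p = 0.0308). The gene of Cdc48, the ATPase that works with the Dsc complex, fell by 0.18 (adjusted p = 0.00225), and its change was -0.09 after correction for gene length (adjusted p = 0.0422).

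The dioxygenase gene ofd1 (SPBC6B1.08c) fell. The isp7 null arrays stood at 11.42, 11.54 and 11.52 and the wild type arrays at 11.91, 11.88 and 11.87. All null arrays were lower, and the change was -0.39 (SE 0.039, 95% interval -0.48 to -0.30, limma adjusted p = 0.000101), 1.31-fold. After correction for gene length it was -0.38. At 1912 bases ofd1 is near the median length of all *S. pombe* probe sets (1876 bases), so that correction could hardly move its change. The related dioxygenase gene ofd2 fell by 0.36 (adjusted p = 0.000117). The gene of the Ofd1 inhibitor nro1 fell by 0.15 (adjusted p = 0.0182), a call that ended with median centring (-0.10, adjusted p = 0.0829) and without isp7 null array 3 (-0.13, adjusted p = 0.0586). It also ended without variance moderation (adjusted p = 0.0574) and with all probe sets of the array (adjusted p = 0.0592). The Insig counterpart ins1 rose by 0.24 (adjusted p = 0.000615). The further SREBP family gene sre2 fell by 0.24 (adjusted p = 0.00606), and at 4166 bases it had a change of -0.07 after correction for gene length (adjusted p = 0.268).

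In the remaining mevalonate and sterol pathway, 20 of 21 listed genes were measured. Of these, 9 rose and 8 fell, against 29.3% and 41.3% of all probe sets, with a median change of -0.01. Before squalene, the kinase steps after Hmg1 were lower. The phosphomevalonate kinase gene erg8 (SPAC343.01c) stood at 11.24, 11.36 and 11.47 in isp7 null arrays and at 11.95, 12.0025 and 11.96 in wild type arrays. The null arrays were all lower and more spread, and the change was -0.61 (SE 0.057, limma adjusted p = 7.37e-05), 1.53-fold lower. The mevalonate kinase gene erg12 stood at 12.73, 12.75 and 12.76 in isp7 null arrays and at 13.15, 13.14 and 13.11 in wild type arrays, a change of -0.38 (SE 0.026, limma adjusted p = 2.01e-05). The decarboxylase gene mvd1 (-0.17, adjusted p = 0.00179) and the thiolase gene erg10 (-0.18, adjusted p = 0.00157) fell as well. The isomerase gene idi1 (0.18, adjusted p = 0.000845) and the squalene synthase gene erg9 (0.09, adjusted p = 0.0280) rose. The HMG-CoA synthase gene hcs1 (-0.02, adjusted p = 0.567) and the farnesyl diphosphate synthase gene fps1 (-0.04, adjusted p = 0.246) did not pass. With hmg1, 5 of the 9 genes from acetyl-CoA to squalene fell and 2 rose, against 41.3% and 29.3% of all probe sets. The rise of idi1 ended after correction for gene length (0.06, adjusted p = 0.0976), and that of erg9 ended there (0.04, adjusted p = 0.256), with repeated quantile normalization (0.07, adjusted p = 0.0563) and with all probe sets of the array (adjusted p = 0.136). Leaving out isp7 null array 2 or 3 or wild type array 1 or 3 put the adjusted p of erg9 at 0.0904, 0.0553, 0.0792 and 0.0890. The branch gene spo9, for prenyl diphosphate synthesis, was at -0.13 (adjusted p = 0.0177). That fall ended with median centring (-0.08, adjusted p = 0.142), with repeated quantile normalization (-0.06, adjusted p = 0.225), with all probe sets of the array (adjusted p = 0.0701) and without isp7 null array 2 or 3 or wild type array 1 or 2, where the adjusted p was 0.0605, 0.0576, 0.0588 and 0.0507.

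After squalene, the gene that rose most was dap1 (SPAC25B8.01), which encodes a heme-binding protein that supports the P450 enzymes Erg11 and Erg5. The isp7 null arrays stood at 12.42, 12.45 and 12.43 and the wild type arrays at 11.88, 11.89 and 11.76. All null arrays were higher, by 0.59 (SE 0.040, limma adjusted p = 2.01e-05), 1.50-fold. At 861 bases dap1 is a short gene, and after correction for gene length its change was 0.43. The gene of the P450 reductase, ccr1, fell by 0.25 (adjusted p = 0.000188), and that of cytochrome b5, oca8, rose by 0.20 (adjusted p = 0.000274). The 2 sterol desaturase paralogs went opposite ways. The isp7 null arrays of erg31 stood at 10.30, 10.32 and 10.08 and its wild type arrays at 10.77, 10.68 and 10.72, a change of -0.49 (SE 0.066, limma adjusted p = 0.000478). For erg32 the isp7 null arrays stood at 13.08, 13.04 and 13.07 and the wild type arrays at 12.89, 12.91 and 12.81, a change of 0.19 (SE 0.034, limma adjusted p = 0.00162). Whether transcripts of one paralog bind the probes of the other was not tested.

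Of the other late genes, the lanosterol synthase gene erg7 fell by 0.29 (adjusted p = 0.00166). The sterol isomerase gene erg2 rose by 0.30 (adjusted p = 4.67e-05), the final reductase gene sts1, now named erg4, by 0.12 (adjusted p = 0.00721) and the scaffold gene erg28 by 0.11 (adjusted p = 0.00705). The rise of erg28 ended with repeated quantile normalization (0.06, adjusted p = 0.0885) and with all probe sets of the array (adjusted p = 0.0529), as did that of sts1 with all probe sets (adjusted p = 0.0507), and after correction for gene length the change of erg28 was -0.03 (adjusted p = 0.305). The sterol acyltransferase gene are1 did not pass (0.007, adjusted p = 0.877). Its partner are2 passed (0.17, adjusted p = 0.0488) with overlapping groups, and did not pass without isp7 null array 1 or 2 or wild type array 2 or 3, where the adjusted p was 0.101, 0.133, 0.128 and 0.112, nor without variance moderation (adjusted p = 0.129) or with all probe sets of the array (adjusted p = 0.110). Among the 11 machinery genes and the 20 pathway genes, dap1 and erg8 were the 2 past 1.5-fold, against 8.60% of all probe sets. Both were close to that limit. The change of erg8 was short of it with median centring (-0.56), with repeated quantile normalization (-0.57), after correction for gene length (-0.53) and without isp7 null array 1 (-0.55). That of dap1 was short of it after correction for gene length (0.43), without isp7 null array 2 (0.58) and without wild type array 3 (0.55).

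**Figure D4:**
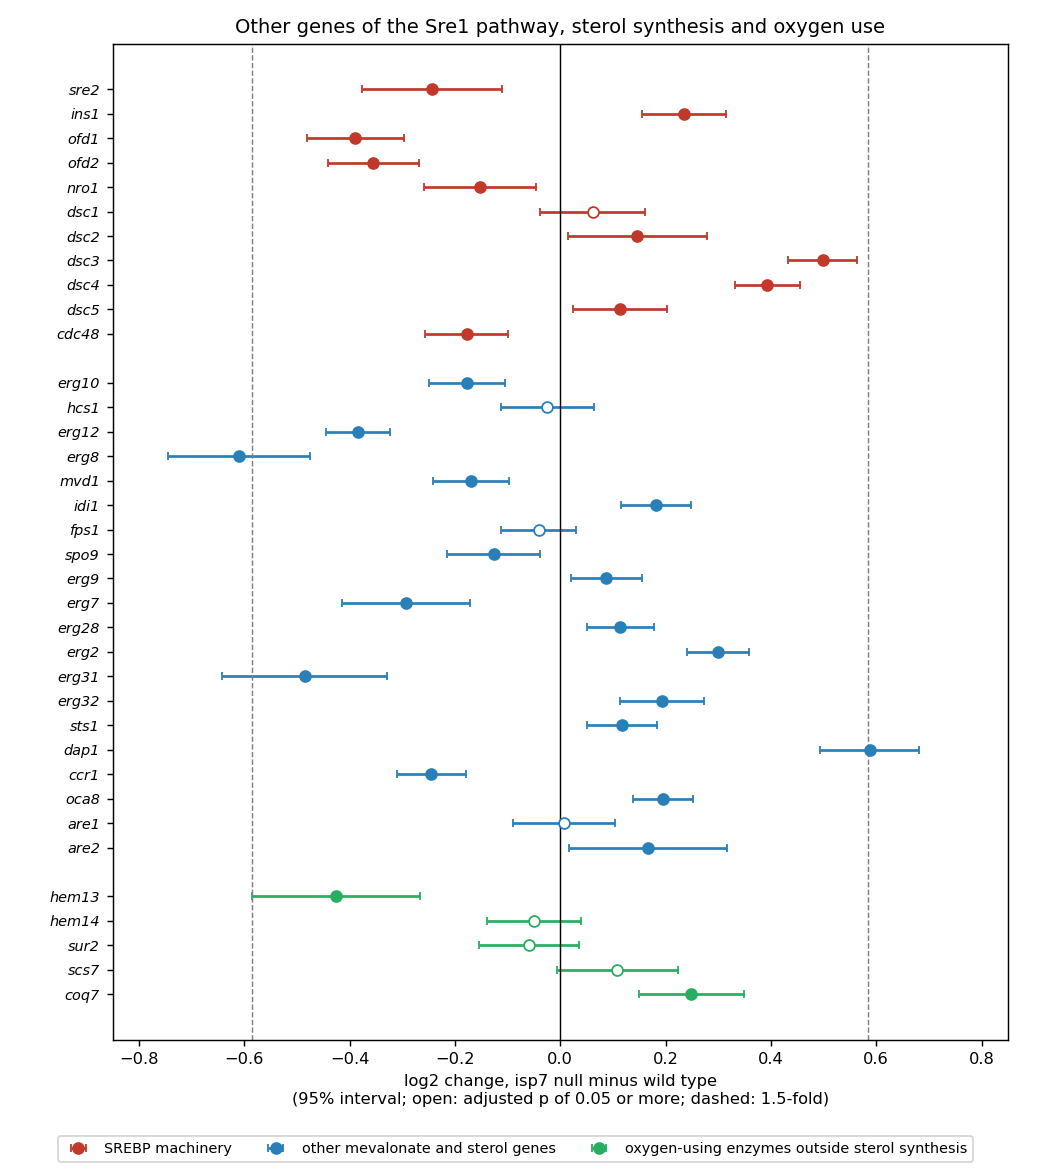
Log2 change (isp7 null minus wild type, horizontal axis) with 95% intervals for genes listed around Sre1 (red). Other mevalonate and sterol genes are in blue and oxygen-using enzymes outside sterol synthesis in green. Open circles did not pass the adjusted p of 0.05, and dashed lines mark 1.5-fold. The estimates of dap1 and erg8 lie just past the dashed lines, and the Dsc subunits lie right of 0 while ofd1 and ofd2 lie left of it.

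Of 5 measured genes (6 listed) for oxygen-using enzymes outside sterol synthesis, 1 rose and 1 fell, against 29.3% and 41.3% of all probe sets. The coproporphyrinogen oxidase gene hem13, a heme synthesis gene that Sre1 activates in low oxygen, stood at 12.69, 12.90 and 12.63 in isp7 null arrays and at 13.14, 13.18 and 13.18 in wild type arrays. The null arrays were all lower, with array 2 the highest of them, and the change was -0.43 (SE 0.067, 95% interval -0.59 to -0.27, limma adjusted p = 0.000994). The ubiquinone synthesis gene coq7 rose by 0.25 (adjusted p = 0.00139), a call that ended after correction for gene length (0.11, adjusted p = 0.0632). The heme gene hem14 (-0.05, adjusted p = 0.267) and the sphingolipid hydroxylase genes sur2 (-0.06, adjusted p = 0.222) and scs7 (0.11, adjusted p = 0.0833) did not pass. Without wild type array 3 the change of sur2 was -0.10 (adjusted p = 0.0358). Without isp7 null array 3 or wild type array 2 that of scs7 was 0.14 and 0.15 (adjusted p = 0.0475 and 0.0250), and it also passed with median centring (0.16, adjusted p = 0.0310), with repeated quantile normalization (0.15, adjusted p = 0.0354) and after correction for gene length (0.13, adjusted p = 0.0474).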

How the data were processed

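Total RNA, extracted with hot phenol, was measured on 6 Affymetrix yeast arrays that carry probe sets for *S. pombe* and *S. cerevisiae*. The authors deposited log2 values per probe set, made with RMA in Partek 6.5 per the submitters' processing notes. RMA brings all arrays to 1 distribution, so a change in total RNA per cell is lost, and it compresses differences near background and saturation. Precision is limited by the number of arrays, all 6 of which were used.

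Gene names came from the platform annotation and were updated by gene ID with the RefSeq table of ASM294v3, which also gave gene lengths and overlaps. No coordinates are printed, since no build is given for the array in the sources used here. Genes listed but without a named probe set (rbd2, erg26 and ole1) were not analysed here.

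limma 3.58.1 (lmFit, eBayes; R 4.3.3) was run on 2917 *S. pombe* probe sets, two-sided, with Benjamini-Hochberg adjustment over all of them, and the code was tested on simulated data. The background was percentile 95 of the mean values of 2601 *S. cerevisiae* probe sets. Every one of the 10 genes and every measured gene of 3 lists was named whatever its value. The 10 genes and the lists were chosen with earlier results of these data known. The alternatives were other variance priors, the replicate block, other scalings, a background filter, all probe sets, averaging per gene, removal of each array's linear trend on log2 gene length, the fold limits, and leaving out each array. The labels name no batch.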

Additional observations from a re-analysis of the deposited data

How the results depend on the processing

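Of 160 values of the 10 genes under 16 alternatives, 147 kept their direction and their side of the threshold, 3 (all sre1) lost the call, 9 gained one, and 1 changed sign, erg11 at 0.0048 after correction for gene length. The calls of scp1, hmg1, erg1, erg5 and erg6 held under all 16. These are not 16 independent checks. Other variance priors, no variance moderation, the replicate block, the background filter, all probe sets and averaging per gene left each change as it was. Direction was fixed there, and only the adjusted p could move. The other scalings, the length correction and leaving out arrays could move the change itself. The number of the 10 genes that rose was 1 (3 with repeated quantile normalization and 3 with median centring) and the number that fell was 5 (4 with either of those scalings, 6 with an intensity trend and 6 without variance moderation). With either of those scalings the counts over all *S. pombe* probe sets moved the same way. With each array left out the counts of the 10 ranged from 1 to 2 and from 5 to 6. At 1.5-fold and at 2-fold, 0 of the 10 rose and 0 fell. Of the other pathway and machinery genes 14 rose and 13 fell, against 29.3% and 41.3% of all *S. pombe* probe sets, with ranges of 10 to 13 and 11 to 13 over left-out arrays. With all 10928 probe sets of the array tested, 8 of these genes rose. In that setting 1549 of the 10928 rose, against 856 of 2917 in the main fit. At 1.5-fold 1 of the other pathway and machinery genes rose and 1 fell, and at 2-fold 0 rose and 0 fell. The cause of each shift was not tested, except that a fold limit can only lower a count. The replicate numbers did not pair the arrays: deviations of same-numbered arrays correlated at -0.12, -0.25 and 0.11, and 1 of 3 null arrays matched its own number best. With the replicate block 1 of the 10 rose and 5 fell, and 11 and 13 of the other genes did, the lost calls being dsc2 (adjusted p = 0.0800), erg9 (0.0513) and are2 (0.0592). The SE of the changes was 0.026 to 0.041 for the 10 genes, and all their values were above the background.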

Other observations

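In the order of protein-coding genes of the RefSeq table, dap1 is the 13th from isp7, a position looked up after its value was seen. The run of genes kei1, dap1, sds3 and psd2 had changes of 0.28, 0.59, 0.30 and 0.42, all past the limma adjusted p. The run was picked out after the values were seen. Next to it on the isp7 side, mss51 did not pass (0.05, limma adjusted p = 0.300), and no gene between mss51 and isp7 had a named probe set. On the far side of the run rpo41 (-0.31) and mug56 (-0.25) fell. The gene next to isp7 on its other side, mal2, also fell (-0.29). Among the 20 protein-coding genes on each side of isp7, 17 had a named probe set. Of these 17, 4 rose and 9 fell, against 29.3% and 41.3% of all *S. pombe* probe sets.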
